A study of Mus musculus with 15 samples.

Results

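Genes of the translation initiation factors and translation elongation factors were examined in the RNA of circulating extracellular vesicles (EVs). Members were the gene symbols that begin with Eif and a digit, or with Eef followed by 1 or 2, with pseudogene symbols containing -ps left out. The rule gave 64 genes of 43472 symbols in the count tables, 8 of them Eef genes and 56 Eif genes. Each table held reads counted per gene symbol, expressed here as CPM, the gene's count over the library's reads on genes, scaled to a common total.

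RNA-seq had been performed on 15 libraries, 3 from wild type (WT) C57BL/6 mice, 6 from dystrophic Sgcb-null mice, which lack β-sarcoglycan, and 6 from hypertrophic mice. By the study's methods all mice were 3 to 6 months old, no treatment was given, and ketamine was used to euthanize them before blood was drawn. Each EV sample pooled plasma of 2 to 3 mice. Fewer Sgcb-null plasma mice are listed than 6 separate pools would need, so whether libraries share mice is not known. The hypertrophic genotype is MAGIC F1 in the sample labels and Mstn-null in the study's methods, and the labels say serum where the methods say plasma, so only the condition is used here. In 6 libraries the number in the sample title differed from that of the deposited counts. These were dystrophic replicates 4, 5 and 6 and hypertrophic replicates 1, 2 and 3, whose numbers were swapped across the conditions. Grouping followed the labels, and results that turn on these libraries are also given with the 6 exchanged or left out. The labels name no separate animals behind the pools, so p-values measure the spread between these libraries.

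Depth ran from 27227 reads on genes in WT replicate 1 to 32563362 in dystrophic replicate 6. One read was worth 36.7 CPM in WT replicate 1 and 0.0307 CPM in dystrophic replicate 6. The RNA was amplified before library preparation, so reads are not independent molecules and all intervals cover counting error only. Sgcb, the gene deleted in the dystrophic mice, had 695 reads in hypertrophic replicate 3, one of the 6 crossed libraries, and 0 reads in the other 14, WT libraries included. That library is labelled hypertrophic and would be Sgcb-null if the 6 were exchanged, and the counts per gene do not tell which part of Sgcb its reads lie in. Red cell marker genes took 2.29 to 15.6% of counts per library, platelet markers 0.938 to 3.35%, EV markers 0.392 to 3.38%, and the 6 skeletal muscle markers at most 0.0295%, with fast myosin Myh4 at 0 in every library.

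Translation begins when initiation factors bring the small ribosomal subunit, the initiator tRNA and the capped mRNA together and scan for a start codon. Elongation factors then deliver each aminoacyl-tRNA to the ribosome and move the ribosome along by one codon at a time. Elongation factor 1 alpha, encoded by Eef1a1, is among the most abundant proteins of most cells, and its mRNA belongs to those that begin with a run of pyrimidines, the 5′ terminal oligopyrimidine (TOP) motif, through which growth signals set their translation.

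The bases around the annotated start of transcription are shown first for the members that led the counts and for the eIF2 gamma pair on the sex chromosomes. Each line gives 15 bases on either side of the start from RefSeq's table for GRCm38.p6, 5′ to 3′ on the gene's strand, and capitals mark a run of at least 8 bases that are all C or T.
Eef1a1: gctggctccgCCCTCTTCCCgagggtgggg
Eef2: tataaaaggccgggcgttgacgtcagcggt
Eef1b2: tggacctgcagttccgccggaagtagccga
Eif1: gcgctggcgtcacaggggcggctatataag
Eif3f: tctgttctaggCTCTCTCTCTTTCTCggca
Eif2s3x: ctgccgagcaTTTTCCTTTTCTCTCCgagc
Eif2s3y: gcggaggccacagccaCTTCCTTCTTTCgt
These windows lie at chr9:78481710-78481739 on the minus strand (Eef1a1), chr10:81176616-81176645 on the plus strand (Eef2), chr1:63176816-63176845 on the plus strand (Eef1b2), chr11:100319934-100319963 on the plus strand (Eif1), chr7:108934400-108934429 on the plus strand (Eif3f), chrX:94212637-94212666 on the minus strand (Eif2s3x) and chrY:1010580-1010609 on the plus strand (Eif2s3y). The table held 50 of the 64 members, and a run of this length lay in the window of 12 of them (24%), beside 13.9% of all 27025 genes in the table. The run was found in 2 of 8 members detected in 13 or more libraries and in 6 of 14 members detected in 5 or fewer. The window and the length of the run were chosen after the sequences had been seen, and a window without a run says only that these letters are not in it. Runs were counted anywhere in the window, and that of Eif2s3y does not include the annotated start. Whether the mRNAs begin at the annotated starts was not tested. A marked run is thus not shown to be a TOP motif, nor is a window without one shown to lack it. Of the 5 members that led the counts, Eef1a1, Eef2, Eif1, Eef1b2 and Eef1g, only Eef1a1 is shown with a run, and Eef1g is not in the table.

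Reads were found for 61 of the 64 members in at least 1 library. Eif2c5, Eif4ebp3 (an inhibitor of cap binding) and Eif4e1b (a cap-binding protein of oocytes) had 0 reads in all 15 libraries. Only 5 members, Eef1a1, Eef2, Eef1b2, Eif1 and Eif4ebp1, had reads in every library, which is 3 of 8 Eef genes and 2 of 56 Eif genes. Without WT replicate 1, the shallowest library, the count was 7, with Eef1g and Eif4b added. Among all 13281 genes with a read anywhere, 1.27% had reads in every library and 3.55% in 13 or more, and 12 members (18.8%) reached 13 or more. A member had 0 reads in 47.2% of its 960 gene and library pairs, 32.5% for Eef genes and 49.3% for Eif genes, beside 71.0% for all genes with a read.

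**Figure D1:**
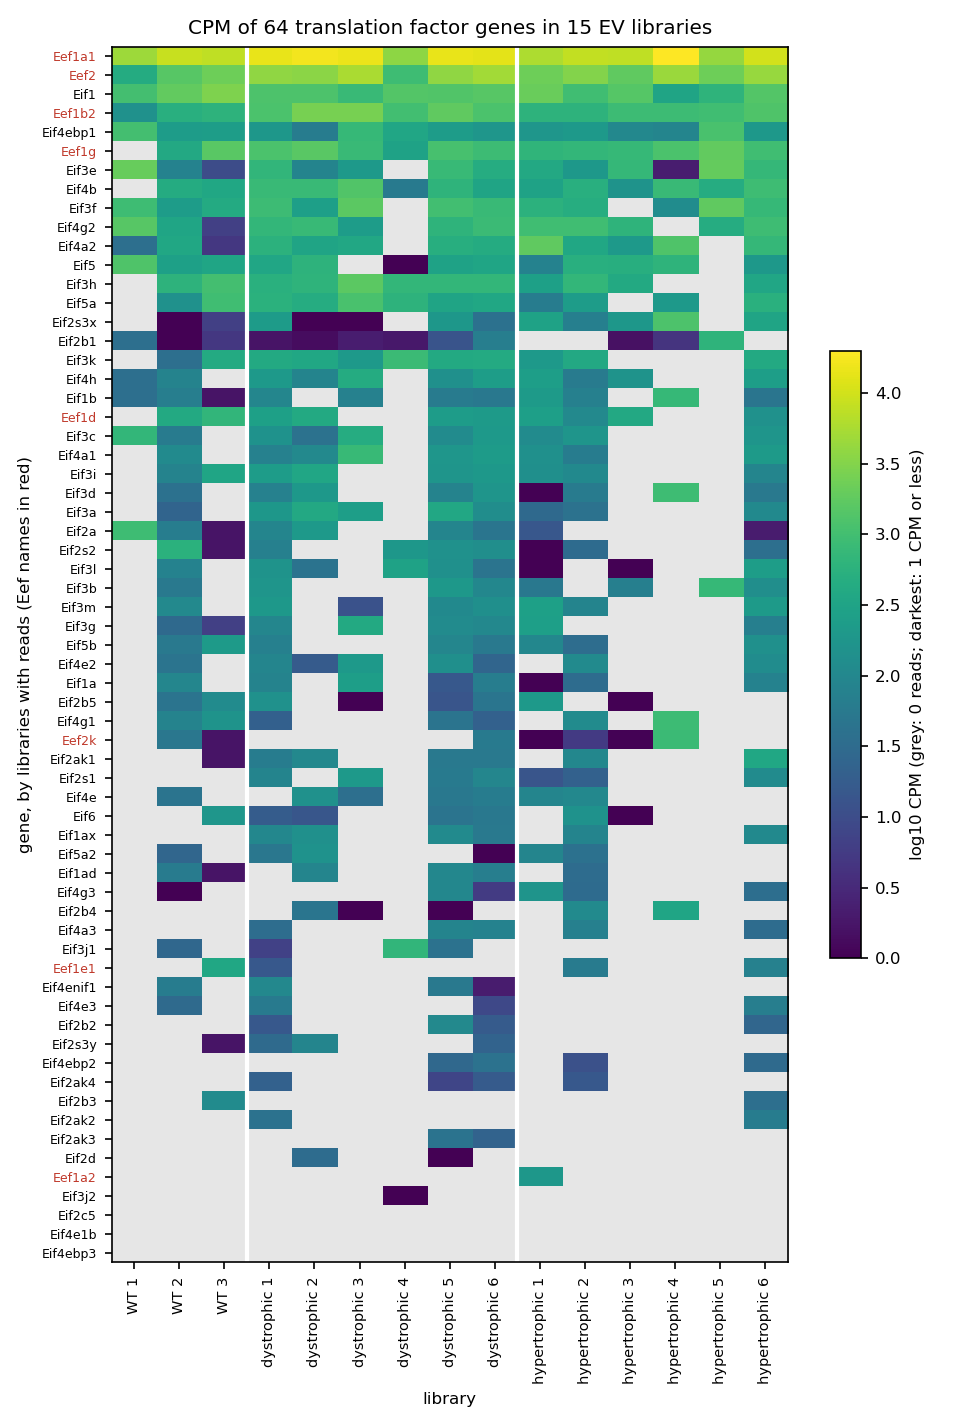
Level of each of the 64 members (rows, ordered by the number of libraries with reads) in each of the 15 libraries (columns, white lines between conditions), as log10 CPM, with grey for 0 reads. The 5 members at the top had reads in all 15 libraries, and most columns below them mix high values with grey.

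Zero reads were often found where the other libraries of the same condition predicted many. A pair of gene and library was counted when the mean CPM in the other libraries of its condition predicted at least 10 reads at that library's depth. Of such pairs, 23 of 98 (23.5%) were at 0 for Eef genes and 229 of 604 (37.9%) for Eif genes, beside 56.3% of 89870 pairs of all other genes. Elongation factors and their exchange subunits (Eef1a1, Eef1a2, Eef1b2, Eef1d, Eef1g and Eef2), without the regulators Eef2k and Eef1e1, were at 0 in 11 of 80 such pairs (13.8%), and the subunits of eIF3, the largest initiation factor complex, in 54 of 167 (32.3%). These shares are descriptions of abundance, depth and dropout together, which were not tested apart. Where a member did have reads, its CPM was often high: without WT replicate 1, 295 of 492 pairs with reads (60.0%) were at 100 CPM or more and 48 (9.76%) were under 10 CPM. These CPM shares were not computed over all genes, and the reads behind a CPM value differ with depth. Over all 15 libraries, 1 to 9 reads were found in 4.90% of member pairs, beside 4.56% for all genes with a read.

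**Figure D2:**
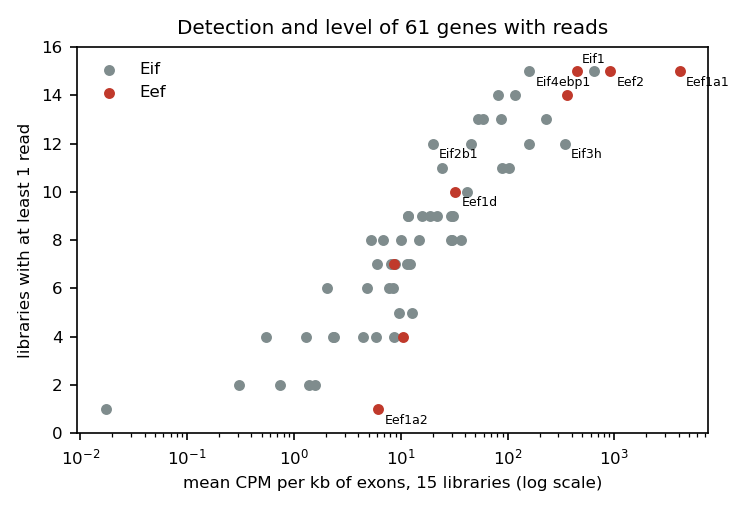
Number of libraries with at least 1 read against mean CPM per kb of exons over the 15 libraries (log axis) for the 61 members with reads, Eef genes in red. Detection rose with level, with Eef1a1 at 4100 CPM per kb at the right and Eef1a2, in 1 library, at the lower edge.

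Eef1a1, which carries aminoacyl-tRNA to the ribosome, was the highest member in all 15 libraries, both in CPM and in CPM per kb of exons. Its CPM was 4701, 8619 and 7669 in WT replicates 1 to 3. In the dystrophic libraries it ran from 3733 in replicate 4 to 16481 in replicate 2 with a median of 14221, and the other 5 libraries lay at 13142 or above. In the hypertrophic libraries it ran from 4140 in replicate 5 to 19649 in replicate 4 with a median of 7830. The 5 high dystrophic libraries were above all WT libraries, dystrophic replicate 4 was below all 3, and the hypertrophic range covered the WT range and most of the dystrophic one.

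As a share of counts, Eef1a1 took 0.700% ± 0.204 (SD, n = 3) in WT, 1.28% ± 0.457 (n = 6) in dystrophic and 0.927% ± 0.547 (n = 6) in hypertrophic libraries. The dystrophic mean was 0.579 percentage points above WT (exact two-sided permutation p = 0.0952, 0.286 after Benjamini-Hochberg adjustment over the 3 comparisons). The hypertrophic mean was 0.228 points above WT (exact permutation p = 0.643, adjusted p = 0.643) and 0.351 points below the dystrophic mean (exact permutation p = 0.251, adjusted p = 0.377). The smallest p that the design allows is 0.0238 against WT and 0.00216 between the mutants. Single libraries weighed on these values. Without dystrophic replicate 4 the difference from WT was 0.760 points (exact permutation p = 0.0357, the smallest possible there, adjusted p = 0.0974). With any other dystrophic library left out the exact permutation p was 0.143, and with any WT library left out 0.214. Without hypertrophic replicate 4 the hypertrophic mean was 0.0200 points above WT (exact permutation p = 0.964) and 0.559 points below the dystrophic one (exact permutation p = 0.0433, adjusted p = 0.130). Between the mutants, the exact permutation p with any other library left out ran from 0.0649 to 0.424. With the 6 crossed libraries exchanged the difference between the mutants was -0.0374 points (exact permutation p = 0.903). The dystrophic mean was then 0.422 points above WT (exact permutation p = 0.214).

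Blood cell markers also varied between libraries. Red cell markers took a median of 6.30% of counts in WT (2.29 to 8.81%), 7.76% in dystrophic (4.72 to 15.6%) and 4.79% in hypertrophic libraries (3 to 8.83%), and platelet markers 2.63% (1.84 to 2.88%), 1.25% (0.938 to 1.99%) and 2.65% (1.43 to 3.35%). Leukocyte markers took a median of 0.176% (0.151 to 0.268%), 0.238% (0.118 to 0.350%) and 0.227% (0.154 to 0.518%), and the ranges of all conditions overlapped for red cell, platelet and leukocyte markers. Dystrophic replicate 4, the low library, had the highest red cell share of all 15 (15.6%). Hypertrophic replicate 4, with the highest Eef1a1 share (1.96%), had 5.08% red cell markers and the highest leukocyte share. Of the 7 red cell and 6 platelet markers, all had reads in WT and in dystrophic libraries. With mitochondrially encoded and hemoglobin genes taken out of the denominator, the dystrophic mean share of Eef1a1 was 0.618 points above WT (exact permutation p = 0.119). The part of cell types in the difference was not tested. In such bulk samples fewer vesicles from a cell type and less RNA per vesicle cannot be told apart.

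**Figure D3:**
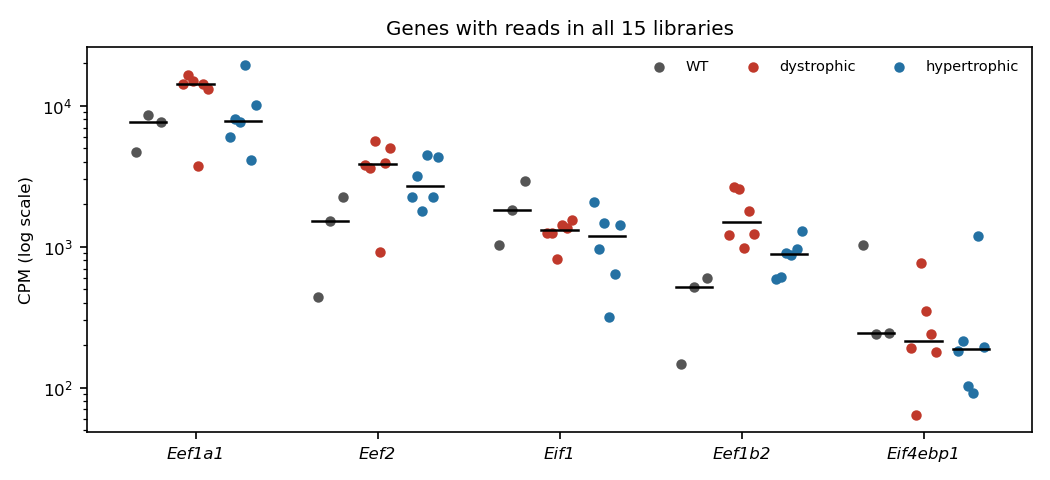
CPM (log axis) of the 5 members with reads in all 15 libraries, each dot a library and each line the median of a condition. For Eef1a1, 5 dystrophic libraries sit at 13142 CPM or above and replicate 4 at 3733, while Eif1 medians lie between 1199 and 1834.

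Eef2 encodes the translocase that moves the ribosome after each peptide bond, and its mean level per kb of exons, 911 CPM, came next. WT libraries had 441, 1520 and 2266 CPM. Dystrophic libraries ran from 919 in replicate 4 to 5602 in replicate 3 with a median of 3871, and hypertrophic libraries from 1803 to 4488 with a median of 2712. Without dystrophic replicate 4, the lowest dystrophic library had 3605 CPM, above the WT range. The WT value of 441 CPM stood for 12 reads. The log2 fold change of dystrophic over WT was 1.24 (SE 0.82, edgeR quasi-likelihood adjusted p = 0.433).

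Eef1b2, Eef1g and Eef1d encode the beta, gamma and delta subunits of the complex that reloads elongation factor 1 alpha with GTP. Eef1b2 had 147, 515 and 602 CPM in WT, from 983 to 2643 with a median of 1507 in dystrophic, and from 594 to 1296 with a median of 888 in hypertrophic libraries. All 6 dystrophic libraries were above all 3 WT libraries, and the hypertrophic range overlapped both. Eef1b2 was the only 1 of 55 members tested whose dystrophic and WT libraries did not overlap, while 0.479% of the 6887 genes tested lay higher in all dystrophic libraries. No member lay lower in all dystrophic libraries, beside 0.276% of genes. In hypertrophic against WT 0 members lay apart, beside 0.174% of genes higher and 0.276% lower, and in hypertrophic against dystrophic 0, beside 0.0145% higher and 0.145% lower. Eef1b2 was singled out after its values had been seen. The fold change of dystrophic over WT on the log2 scale was 1.75 (SE 1.29, edgeR adjusted p = 0.502), the lowest WT value stood for 4 reads, and with the crossed libraries exchanged the dystrophic range began at 594 CPM and overlapped WT. Exons of Eef1b2 share bases with Ndufs1 on the other strand, which had reads in 7 libraries with a mean of 20.3 CPM, and whether strand was used in counting is not known: a stranded kit is named in the labels and a different one in the study's methods.

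Eef1g had 0, 396 and 1554 CPM in WT and between 301 and 1834 CPM in every mutant library. Eef1d was at 0 in 5 libraries, WT replicate 1, dystrophic replicates 3 and 4 and hypertrophic replicates 4 and 5, and between 106 and 685 CPM in the others. The libraries without Eef1d reads thus included dystrophic replicate 3 with 2680782 and replicate 4 with 1608699 reads on genes. Levels per kb of exons over the 15 libraries were 446 CPM for Eef1b2, 359 for Eef1g and 32.4 for Eef1d, beside 4100 for Eef1a1 and 911 for Eef2, so the 3 exchange subunits were unequal on that scale. The exon length of Eef1d, 6488 bases over all its transcripts, was the longest of these.

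Eef1a2 is the paralog that replaces Eef1a1 in adult muscle fibres and neurons. It had 982 reads (192 CPM) in hypertrophic replicate 1 and 0 reads in the other 14 libraries. That library's 6 skeletal muscle markers had a summed share of 1.95e-05%. The coding sequences of both paralogs are alike, so reads that fit each of them equally well could have been left out of both counts. Among the regulators, Eef2k, the kinase that inhibits Eef2, had reads in 7 libraries and at most 57.8 CPM outside hypertrophic replicate 4, where it had 838 CPM. Eef1e1, a scaffold of the tRNA synthetase complex, had reads in 4 libraries, with 362 CPM in WT replicate 3 and 15.4, 61.7 and 77.4 CPM in the others.

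Summed over genes, the 8 Eef genes took 0.998% ± 0.414 of counts in WT (SD, n = 3), 1.95% ± 0.688 in dystrophic (n = 6) and 1.46% ± 0.671 in hypertrophic libraries (n = 6). The 56 Eif genes took 0.800% ± 0.148, 0.903% ± 0.225 and 0.788% ± 0.197. For the Eif genes the means of the conditions lay within 1 SD of each other. For the Eef genes the dystrophic libraries other than replicate 4 (0.594%) held 2.06 to 2.47%, above the WT maximum of 1.31%, and hypertrophic replicate 4 was the highest library of all at 2.71%. With the 6 crossed libraries exchanged, the mean Eef share was 1.73% in dystrophic and 1.68% in hypertrophic libraries. With them left out it was 2.31% and 1.78%. Score tests over the members were not made, since they were chosen with results of these data known.

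**Figure D4:**
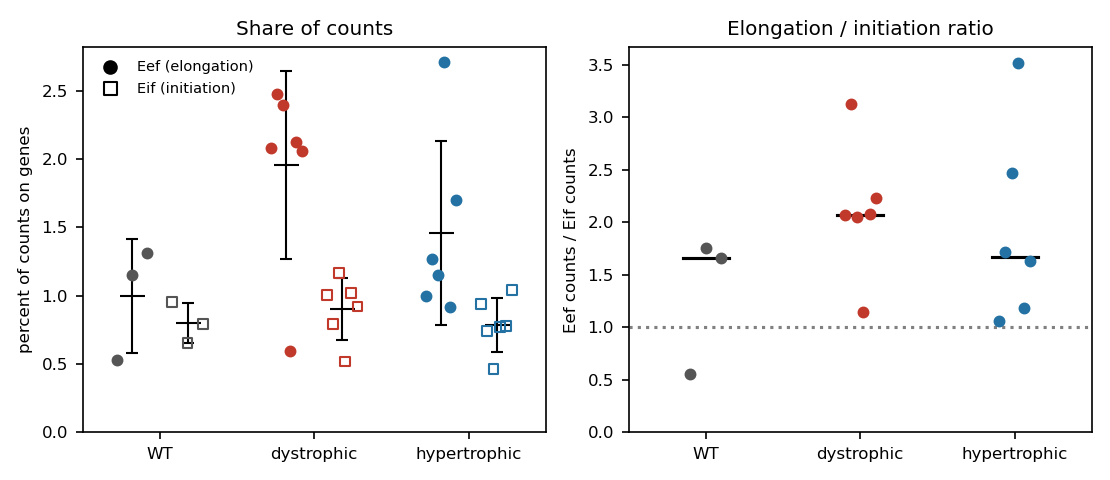
Left, percent of counts on the 8 Eef genes (filled circles) and the 56 Eif genes (open squares) per library, with the mean and SD of each condition. Right, the ratio of Eef to Eif counts per library, with the median of each condition as a line and the dotted line at 1, below which only WT replicate 1 (0.556) lies.

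Eef counts exceeded Eif counts in 14 of 15 libraries. The ratio had a median of 1.66 in WT, 2.08 in dystrophic and 1.67 in hypertrophic libraries, and ran from 0.556 in WT replicate 1 to 3.52 in hypertrophic replicate 4. With the 6 crossed libraries exchanged, the medians were 2.06 in dystrophic and 1.86 in hypertrophic libraries, and with them left out 2.07 and 1.63. In WT replicate 1 the ratio rested on 144 Eef reads (0.529% of counts, 95% Wilson interval 0.449 to 0.622%) and 259 Eif reads (0.951%, 0.843 to 1.07%). Counted per kb of exons, or with only the factors proper, Eef again exceeded Eif in 14 libraries. The excess was carried by Eef1a1: it made up 45.0 to 88.9% of Eef counts, alone exceeded all 56 Eif genes in 9 libraries, and without it Eef exceeded Eif in 1 of 15 libraries, dystrophic replicate 2 at a ratio of 1.04.

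Among the initiation factors, those that scan for the start codon were led by Eif1, the gatekeeper of start codon choice. Eif1 had 1028, 1834 and 2943 CPM in WT, a median of 1305 (814 to 1543) in dystrophic and a median of 1199 (319 to 2069) in hypertrophic libraries. Eif1 was the highest Eif gene in 11 of 15 libraries by CPM and in 12 by CPM per kb, and the conditions overlapped. Its companions were rarer: Eif1b had reads in 11 libraries, Eif1a in 8 and Eif1ax, the X-linked eIF1A gene, in 6, each with a mean of at most 100.2 CPM. Eif1ad, which matches the symbol rule but was not classed as a scanning factor, had reads in 6 with a mean of 23.5 CPM. Per kb of exons, Eif1 had a mean level of 647 CPM and Eif1b of 89.1.

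The 14 genes of eIF3, which holds the small subunit together with the mRNA, were unequal in detection. Eif3e was found in 14 libraries, Eif3f in 13, Eif3h in 12, Eif3k in 11 and Eif3c in 10, while Eif3j1 was found in 4 and Eif3j2 in 1 with 1 read. Eif3f had 918, 239 and 419 CPM in WT, a median of 849 (0 to 1660) in dystrophic and of 530 (0 to 1771) in hypertrophic libraries. Eif3h was present in all 6 dystrophic libraries, from 539 to 1664 CPM, and was at 0 in WT replicate 1 and in hypertrophic replicates 4 and 5. Eif3e had its highest levels in WT replicate 1 (1983 CPM) and hypertrophic replicate 5 (1892 CPM), and it was at 0 in dystrophic replicate 4 with 1608699 reads on genes. Subunits of 1 complex were thus not all detected in the same libraries, and summed eIF3 ran from 1062 to 4889 CPM. Per kb of exons the highest of them were Eif3h (344 CPM), Eif3f (229 CPM) and Eif3k (103 CPM).

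The cap-binding complex eIF4F joins the cap-binding protein eIF4E, the helicase eIF4A and the scaffold eIF4G. Of its cap-binding genes, Eif4e had reads in 7 libraries with a mean of 6.03 CPM per kb of exons, Eif4e2 in 8 with 6.82 CPM per kb and Eif4e3 in 4 with 4.48 CPM per kb. Of the inhibitors that hold eIF4E back, Eif4ebp1 had reads in all 15 libraries, with 1028, 240 and 244 CPM in WT, a median of 215 (63.9 to 768) in dystrophic and of 187 (90.9 to 1183) in hypertrophic libraries, while Eif4ebp2 had reads in 4. Among the helicases, Eif4a2 was found in 13 libraries with a mean of 467 CPM, Eif4a1 in 9 with 129 CPM, and Eif4a3, part of the exon junction complex, in 5 with 20.6 CPM. Per kb of exons the mean was 87.5 CPM for Eif4a2 and 29.7 for Eif4a1. Of the scaffolds, Eif4g2, which lacks the eIF4E-binding part of Eif4g1, was found in 13 libraries with a mean of 599 CPM, whereas Eif4g1 was found in 7 and Eif4g3 in 6. Most of the Eif4g1 mean of 89.5 CPM came from hypertrophic replicate 4 (889 CPM). The helicase cofactor Eif4b was found in 14 libraries (mean 528 CPM) and Eif4h in 11 (134 CPM).

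The genes of eIF2, which brings the initiator tRNA, were detected in 4 to 12 libraries each. The alpha subunit Eif2s1 had reads in 7 libraries, the beta subunit Eif2s2 in 9, and the X-linked gamma subunit Eif2s3x in 12 with a mean of 174 CPM. The Y-linked gamma gene Eif2s3y had reads in 4 libraries, 1 in WT replicate 3 and 36, 197 and 775 in dystrophic replicates 1, 2 and 6, and 0 in all hypertrophic libraries. Its 0 does not tell the sex of the mice, which the labels do not give: another Y-linked gene, Ddx3y, had 410 reads in WT replicate 2 and 209 in hypertrophic replicate 2, where Eif2s3y was at 0, and X-linked Xist was at 0 in all 15. The kinases that shut eIF2 down under stress were found in few libraries, Eif2ak1, the heme-regulated kinase of red cell precursors, in 7, Eif2ak4 in 4, and Eif2ak2 and Eif2ak3 in 2 each.

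The subunits of eIF2B, which recharges eIF2, showed an uneven pattern. Eif2b1 had reads in 12 libraries, but in 9 of them between 1 and 6 reads, with 38 and 2231 reads in dystrophic replicates 5 and 6 and 208 reads in hypertrophic replicate 5. Eif2b2 was found in 4 libraries, Eif2b3 in 2, Eif2b4 in 5 and Eif2b5 in 8. Of the factors that join the large subunit, Eif5 was found in 13 libraries with a mean of 361 CPM and Eif5b in 8 with 51.7 CPM. Eif5a, which helps ribosomes through stalling sequences in spite of its name, was found in 12 libraries with a mean of 376 CPM and was at 0 in WT replicate 1 and hypertrophic replicates 3 and 5. Its paralog Eif5a2 was found in 6 and Eif6 in 7.

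The number of members detected followed the library more than the condition, and it moved with the number of all genes detected. A library with more genes detected had as many members or more, apart from WT replicate 1 and hypertrophic replicate 5, which swapped places. Of all genes with a read, WT replicate 1 had 797 (6.00%) and hypertrophic replicate 5 had 814 (6.13%). Dystrophic replicate 6 had 8968 (67.5%). The members detected in these libraries were 23.4, 18.8 and 82.8% of the 64. WT libraries had reads for 30.7 ± 14.6 members (SD, n = 3), dystrophic for 39.3 ± 14.99 (n = 6) and hypertrophic for 29.8 ± 14.1 (n = 6), from 12 in hypertrophic replicate 5 to 53 in dystrophic replicate 6, so the conditions differed by less than 1 SD. With the 6 crossed libraries exchanged, the means were 36.5 in dystrophic and 32.7 in hypertrophic libraries, and with them left out 38.3 and 25. At the smallest depth of 27227 reads, the expected numbers under the labels were 23.7 in WT, 32.6 in dystrophic and 25.4 in hypertrophic libraries. The share of counts on Eif genes moved less than the number of genes it was spread over. Hypertrophic replicate 5 had 8 Eif genes with reads and an Eif share of 0.778%, and dystrophic replicate 6 had 47 and 0.921%. The median level of an Eif gene with reads was 695 CPM in the former and 68.9 CPM in the latter. WT replicate 1 had 12 Eif genes, a share of 0.951% and a median of 918 CPM, and dystrophic replicate 4 had 12, 0.518% and 324 CPM. These points share depth and amplification, whose parts in the pattern were not tested.

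**Figure D5:**
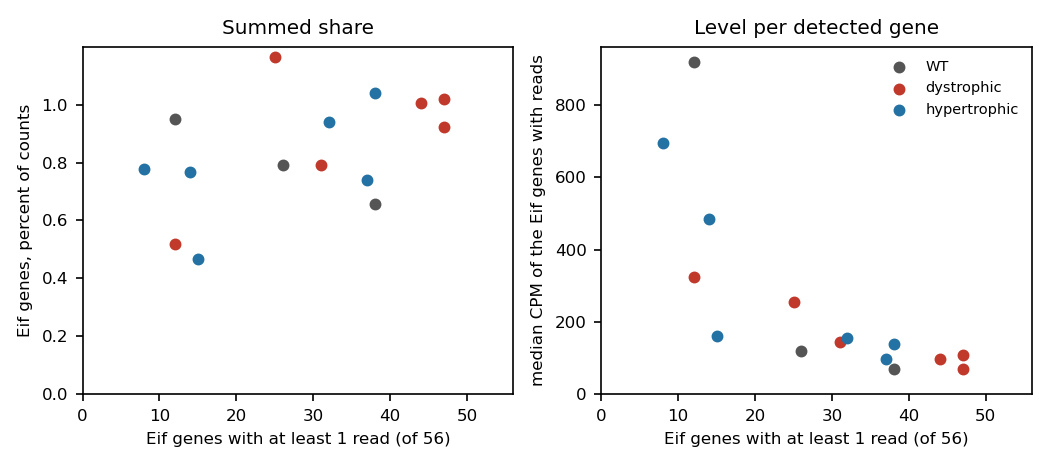
Per library, the summed share of counts on Eif genes (left) and the median CPM of the Eif genes with reads (right) against the number of the 56 Eif genes with at least 1 read, coloured by condition. The share stays between 0.465 and 1.16% while the number runs from 8 to 47. The median level was 695 CPM at 8 genes, 918 and 324 CPM at 12, and 108 and 68.9 CPM at 47.

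Differences between conditions were tested gene by gene with edgeR's quasi-likelihood test on all 15 libraries. Of the 64 members, 55 passed its filter on low counts, 7 Eef and 48 Eif genes, and 9 did not, Eef1a2, Eif2ak2, Eif2ak3, Eif2b3, Eif2c5, Eif2d, Eif3j2, Eif4e1b and Eif4ebp3. No member passed an adjusted p of 0.05. In dystrophic against WT 0 of 55 members passed, beside 0.0145% of the 6887 genes tested, and 0 had an unadjusted p under 0.05, beside 2.02% of genes. In hypertrophic against WT 0 passed, beside 0.029%, and 3 had an unadjusted p under 0.05, beside 8.02%. In hypertrophic against dystrophic 0 passed, beside 0.0145%, and 4 had an unadjusted p under 0.05, beside 12% of genes. DESeq2 run on the same genes called 3, 6 and 1 members in these comparisons, beside 21.1%, 24.5% and 5.17% of the genes with an adjusted p.

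The fitted log2 fold change was above 0 for 40 of 55 members in dystrophic against WT, for 31 in hypertrophic against WT and for 16 in hypertrophic against dystrophic. The members' medians were 1.08, 0.46 and -0.61, beside 1.38, 0.66 and -0.52 for all genes tested. With the 6 crossed libraries exchanged, hypertrophic against dystrophic had 31 of 55 members above 0 and a median of 0.082, beside -0.12 for all genes. The medians against WT were then 0.36 for dystrophic (1.24 for all genes) and 1.02 for hypertrophic (1.13 for all genes). With the number series of the sample titles as a covariate the members' median of hypertrophic against WT was -0.12, beside 0.49 for all genes. With 1 library left out at a time the members' medians ran from 0.71 (without dystrophic replicate 6) to 4.08 (without WT replicate 2) in dystrophic against WT. In hypertrophic against WT they ran from 0.083 (without hypertrophic replicate 6) to 2.06 (without WT replicate 2). In hypertrophic against dystrophic they ran from -1.07 (without hypertrophic replicate 6) to -0.40 (without dystrophic replicate 6). The medians of all genes in these fits were, in the same order, 0.95 and 8.15, 0.059 and 5.96, and -0.82 and -0.30. Many genes had 0 reads in a whole condition, and with such genes set to the bound that 3 counts over the condition allow, the medians were 1.08, 0.47 and -0.61 for members and 1.34, 0.83 and -0.52 for all genes. Among genes with reads in both conditions they were 0.76, 0.15 and -0.57 for members and 0.28, -0.03 and -0.31 for all genes. In both comparisons against WT, whether the members' median lay above or below that of the table thus depended on the genes at 0. In hypertrophic against dystrophic it lay below under each treatment of the genes at 0, but this order was not stable. It lay above with the 6 crossed libraries exchanged, with the title number series as covariate (-0.77 beside -1.18) and without the filter (-0.68 beside -0.77). Without WT replicate 1 or 2 it also lay slightly above, and under the other alternatives below. Without TMM scaling the medians of all genes were 1.57, 1.02 and -0.37.

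The 3 members with the lowest unadjusted p in each comparison were mostly genes at 0 in a whole condition. In dystrophic against WT these were Eif1ax, Eif2s1 and Eif4a3, each at 0 in all 3 WT libraries and with an edgeR adjusted p of 0.433. Eif1ax had 113, 313, 331 and 1775 reads in 4 dystrophic libraries and 0 in the other 2, and pooled over libraries it was at least 164-fold higher than the 3 counts allowed over WT. The same bound was at least 250-fold for Eif2s1 and at least 186-fold for Eif4a3. The bounds cover counting error only, since zeros were also found where at least 10 reads were predicted, in WT for 16 of 59 such Eif pairs (27.1%). All 3 genes passed the filter through mutant libraries and were picked by their p, so the bounds add no support to a difference. WT replicate 2 held 7738568 of the 8367301 WT reads on which these bounds rest. Without it the bounds were at least 12.3-fold for Eif1ax and at least 18.8-fold for Eif2s1, with that of Eif4a3 between them. Dystrophic replicate 6 held 2575 of the 2869 dystrophic reads of Eif4a3, and without it the bounds were at least 201-fold for Eif1ax, 219-fold for Eif2s1 and 78-fold for Eif4a3.

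In hypertrophic against WT the lowest were Eif4enif1, which carries eIF4E into the nucleus (edgeR adjusted p = 0.267), Eif3j1 (edgeR adjusted p = 0.267) and Eif2a (edgeR adjusted p = 0.430). Eif4enif1 and Eif3j1 were at 0 in all 6 hypertrophic libraries, and in WT their reads, 495 and 208, came from WT replicate 2 alone. Eif2a, which can bring initiator tRNA without GTP, had 918, 67.5 and 1.66 CPM in WT, and in hypertrophic libraries 14.6 CPM in replicate 1, 2.17 CPM in replicate 6 and 0 in the other 4. Its log2 fold change was -6.36 (SE 3.06, edgeR adjusted p = 0.430), and its exons share bases with Serp1 on the other strand, which had reads in 14 libraries.

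In hypertrophic against dystrophic the lowest were Eif3j1, Eif4enif1 and Eif2s3y, all at 0 in the hypertrophic libraries and each with an edgeR adjusted p of 0.123. Eif3j1 had 1099 of its 1226 dystrophic reads in dystrophic replicate 4, one of the crossed libraries, and with the labels exchanged its direction turned. Eef1a1 followed with a log2 fold change of -0.83 (SE 0.37, unadjusted p = 0.0249, edgeR adjusted p = 0.224), without a condition at 0. Against WT the log2 fold change of Eef1a1 was 0.76 (SE 0.47, edgeR adjusted p = 0.433) in dystrophic and -0.07 (SE 0.45, edgeR adjusted p = 1) in hypertrophic libraries.

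Other genes of translation that the symbols do not cover were examined as a list of 30, of release factors, poly(A)-binding proteins, kinases and mitochondrial factors. Of these 22 passed the filter and 0 passed an adjusted p of 0.05 in edgeR in any comparison, while DESeq2 called 3, 5 and 0, beside the 21.1%, 24.5% and 5.17% of all genes. An unadjusted p under 0.05 was reached by 0, 2 and 1 of them, Pabpc4 and Paip2b in hypertrophic against WT and Mcts1 in hypertrophic against dystrophic, beside the 2.02%, 8.02% and 12% of all genes. Fold changes on the log2 scale had medians of 1.05, 0.75 and -0.46. Tpt1, a growth-linked protein that binds elongation factor 1 alpha, had reads in all 15 libraries with a mean of 4820 CPM. Pabpc1, the cytoplasmic poly(A)-binding protein, and its inhibitor Paip2 were found in 14 libraries each, and Serbp1, which binds idle ribosomes, in 13. Mtor, the kinase that controls Eif4ebp1, was found in 3, and the release factors Etf1 and Gspt1 in 11 and 6.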

How the data were processed

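RNA-seq counts of 15 EV libraries were used. The authors aligned single reads with TopHat to mm10, per the labels counted them with HTSeq, and deposited raw counts per gene symbol. A stranded kit is named in the labels and a different one in the study's methods. The counting settings, strand included, and the annotation are not given in the sources used here. The 5 summary rows of each table, which name no gene and held 57.9 to 99.2% of its numbers, were left out. CPM was computed over all gene rows. A count of 0 allows up to 3 counts by counting error alone, 0.0921 to 110 CPM by library. Gene positions and exon lengths came from GENCODE M21 (GRCm38, as mm10), which holds all 64 members. The 6 pseudogene rows left out held 18 reads. The summary row of alignments that were not unique held 0.727 to 1.71 per read on genes by library. These went to no gene, so members with close copies may be undercounted. Exon bases were shared with a gene on the other strand for 16 members, and with a gene on the same strand for 13, Eef1a1, Eif4a1 and Eif4a2 among them.

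edgeR 4.0.16 (R 4.3.3, TMM, filterByExpr, quasi-likelihood, 3 conditions, no covariate) was fitted on all genes with Benjamini-Hochberg adjustment. It was also run on simulated data, whose outcome is not given here. The common biological coefficient of variation, the spread between libraries relative to the mean, was 3.04. With a spread this wide, 0 members called does not show equal levels. Standard errors came from the F statistic. The share of Eef1a1 was compared by exact two-sided permutation, p being the smaller one-sided p times 2. Named were the Eef genes, the 10 Eif genes with the highest mean CPM, paralog sets, the 3 members with the lowest p per comparison, and members with reads in all or no libraries; Eif2s3y, Eef1b2 and Eif2b1 patterns were singled out after their values were seen. Members and lists were chosen with earlier results of these data known. Alternatives were DESeq2 1.42.0, no TMM, TMMwsp, no filter, crossed libraries exchanged or left out, no mitochondrial and hemoglobin genes, the title number series as covariate, other count minimums, and each library left out. Leaving out libraries for the count of members in every library and for the bounds of genes at 0 was chosen after seeing the data. No 2 tables held identical counts.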

Additional observations from a re-analysis of the deposited data

Results flagged for a closer look

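Values were checked in groups of 6 libraries for one that stood apart, by its gap to the nearest library as a share of the group's range, for the shares, the ratio, the number detected and the named genes. Of 43 groups, 9 had such a library, and chance gives about 1 in 20 where values are normally spread. That rate does not hold for groups mostly at 0, where a single library with reads stands apart by construction. Dystrophic replicate 4 stood apart with a summed Eef share of 0.594% (nearest 2.06%) and an Eef1a1 share of 0.373% (nearest 1.31%). Eef2k stood apart at 838 CPM in hypertrophic replicate 4 (nearest 5.34 CPM) and Eif4ebp1 at 1183 CPM in hypertrophic replicate 5 (nearest 214 CPM). In dystrophic replicate 3, Eif3h had 1664 CPM (nearest 706 CPM) and Eif5a 1175 CPM (nearest 606 CPM). In 3 groups the library that stood apart was the only one with reads, which were Eef1a2 in hypertrophic replicate 1 (192 CPM), Eef1e1 in dystrophic replicate 1 (15.4 CPM) and Eef2k in dystrophic replicate 6 (57.8 CPM). Over all members, 45 of 114 groups of 6 with a read had such a library, and in 11 of these it was the only one with reads.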

How the results depend on the processing

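No paired analysis was possible because the labels carry no replicate numbers that groups share, and the numbers used here only name libraries. In edgeR no alternative called a member. DESeq2 called 3, 6 and 1 members in dystrophic against WT, hypertrophic against WT and hypertrophic against dystrophic, and the cause was not tested. They were Eif1ax, Eif2b4 and Eif4a3 (both against WT), Eif2a and Eif2s3x (hypertrophic against WT) and Eif4enif1 (hypertrophic against WT and against dystrophic), and 4 members had no adjusted p there. The WT share of Eif genes was 1.10% without mitochondrial and hemoglobin genes in the denominator. With each library left out in turn, edgeR called 0 to 0 members in each comparison. The Eef1a1 share differed by 0.464 to 0.760 points in dystrophic against WT, 0.0200 to 0.330 in hypertrophic against WT and -0.559 to -0.248 in hypertrophic against dystrophic. The Eef share was 0.840 to 1.23% in WT, 1.85 to 2.23% in dystrophic and 1.21 to 1.56% in hypertrophic libraries, and the Eif share 0.724 to 0.872%, 0.851 to 0.980% and 0.738 to 0.853%. The median ratio was 1.11 to 1.71, 2.07 to 2.08 and 1.63 to 1.71, members detected per library 24 to 38.5, 36.6 to 44 and 27 to 33.4, and members with reads in every library 5 to 7.

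The log2 fold change of Eef1a1 in hypertrophic against WT, -0.07, ran from -0.46 to 0.15 with a library left out and was positive under 12 of 23 alternatives, at 0.42 without TMM, 0.032 without the filter, 0.45 with the crossed libraries exchanged, 0.00057 with them left out, 0.50 in DESeq2 and in 7 of the 15 fits that left out a library. With the crossed libraries exchanged, hypertrophic against dystrophic also turned for Eef1a1 (0.089), Eef1b2 (0.060) and Eef2 (0.24) on the log2 scale, and Eif3j1 turned with an edgeR adjusted p of 0.838 against WT and 0.914 against dystrophic. In hypertrophic against dystrophic the exchange moved the members with a log2 fold change above 0 from 16 to 31 of 55. Their median moved from -0.61 to 0.082, and that of all genes from -0.52 to -0.12. Apart from these values and the DESeq2 calls above, the tested results of Eef1a1, Eef1b2, Eef2, Eif1ax, Eif2a, Eif2s1, Eif2s3y, Eif3j1, Eif4a3 and Eif4enif1 kept their direction and their side of the threshold under the alternatives run. Depth, from 27227 reads on genes upward, limits what a 0 means for any single member.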
